A study of Mus musculus with 12 samples.

Results

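The 10 genes described here encode proteins that shape actin filaments into the finger-like protrusions called filopodia. They were chosen by name, with earlier results of these data known. They are Eps8 and its relative Eps8l2, Baiap2 (the gene of IRSp53), the bundling protein gene Fscn1, the Ena/VASP family genes Enah, Vasp and Evl, the motor gene Myo10, and the formin genes Diaph1 and Diaph3. All 10 were among the 13084 genes tested, out of 25786 genes to which transcripts could be assigned.

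The cells were C2C12, an immortalised mouse myoblast line that exits the cell cycle and fuses into multinucleated myotubes when serum is lowered. Every culture received an siRNA, either siKctd10, a single duplex against Kctd10, or siControl, a non-targeting duplex. KCTD10 is a substrate adaptor of the cullin-3 ubiquitin ligase, and the series was titled for the ubiquitin-dependent rebuilding of the actin cytoskeleton in fusing cells. D0 cells stayed subconfluent in medium with 10% fetal bovine serum and were taken 48 h after siRNA. At D2, cells had been transfected 24 h before the switch to differentiation medium (2% horse serum) and had spent 48 h in it. Serum and time since siRNA thus differ with day and cannot be told apart from differentiation. Each of the 4 groups (D0 siKctd10, D0 siControl, D2 siKctd10 and D2 siControl) held 3 poly(A) RNA libraries, 12 in all. The labels do not say that replicates were separate cultures, so the spread behind every p-value is that between these libraries and may be technical. They give no batch or date.

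EPS8 caps the fast-growing ends of actin filaments and, together with IRSp53, bundles filaments. IRSp53 carries an I-BAR domain that bends membrane outward and links CDC42 and RAC to actin regulators. Fascin cross-links parallel filaments into stiff bundles, Ena/VASP proteins lengthen filaments at their growing ends and protect them from capping, formins nucleate and elongate unbranched filaments, and myosin X walks along bundles to filopodial tips. Myoblasts make actin-rich protrusions before they fuse. The libraries report RNA, so ubiquitination, protein amount and protrusions were not measured.

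Depth, estimated from coverage, was 12.51 to 18.08 read pairs per library in units of 1000000. TPM, a level normalised for transcript length that sums to 1000000 in a library, reached 1 or more for 12030 to 12611 genes. Log-scale profiles of replicates correlated at 0.936 to 0.952. In a principal component analysis, days parted along component 1 (41% of variance) and siRNAs along component 2 (10.4%). On component 2 the libraries numbered 3 of both siKctd10 groups stood farthest out, each at -42.4, against -1.2 to -20.3 for the other 4 siKctd10 libraries and 16.3 to 26.3 for the siControl libraries. Summed over 7 myocyte genes, TPM was 1826 to 2176 in D2 siKctd10 and 3240 to 3276 in D2 siControl, and 32.2 to 45.8 in D0 siKctd10 and 32.5 to 49.0 in D0 siControl. Myh3, 1 of the 7, overlapped between the D2 groups, at 199 to 612 TPM in siKctd10 and 299 to 340 TPM in siControl. All 5 myoblast markers (Myod1, Myf5, Pax7, Des and Cdh15) were expressed. The lists of leukocyte, endothelial, epithelial, neural and adipocyte markers summed to at most 3.15 TPM each in every library, with Ptprc, Kdr, Epcam, Snap25 and all 4 adipocyte genes listed at 0. In bulk RNA, fewer cells of a type and less RNA per cell cannot be told apart.

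Kctd10 itself had 24.8, 24.5 and 20.0 TPM in D0 siKctd10, against 272, 258 and 269 TPM in D0 siControl. At D2 it had 34.3, 26.8 and 35.1 TPM in siKctd10, against 285, 276 and 289 TPM in siControl. The siKctd10 means were 0.0866 and 0.113 times the siControl means on D0 and D2, with log2 fold changes of -3.48 and -3.12 and limma adjusted p of 6.8e-07 and 2e-06. The site of the duplex is shown because every siRNA comparison rests on it. It spans an exon junction within the coding part of Kctd10, between positions 114367390 and 114368345 of chromosome 5 (mm10, minus strand).

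Kctd10 target site of the siRNA, 19 bases: ccagcaattctgacgataa

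The seed of its guide strand, bases 2 to 8, is UAUCGUC. Its 7-base complement GACGATA was found in the 3′ untranslated regions of 0 of the 10 genes and of 101 of 12024 genes (0.8%).

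Levels of the 10 genes spanned a wide range, from a mean of 1.99 TPM for Eps8l2 to 921 TPM for Fscn1 over the 12 libraries, each per length. Between them came Enah at 6.7, Evl at 10.8, Diaph3 at 46.7, Vasp at 58.0, Eps8 at 61.4, Myo10 at 66.9, Diaph1 at 73.4 and Baiap2 at 81.0 TPM. Knockdown of Kctd10 moved none of the 10 past the threshold (limma, Benjamini-Hochberg adjusted p under 0.05 over all genes tested) on either day, where 2.45% of all genes tested passed at D0 and 4.75% at D2. Unadjusted p was under 0.05 for 1 of the 10 at D0, Diaph3, and for 0 at D2. Between D2 and D0, 3 of the 10 passed in siKctd10 cells, where 36.4% of all genes did. In siControl cells 2 of the 10 passed, where 35.5% did. All 5 of these calls were lower at D2, a direction called for 13.3% of all genes in siKctd10 and 14.1% in siControl.

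**Figure D1:**
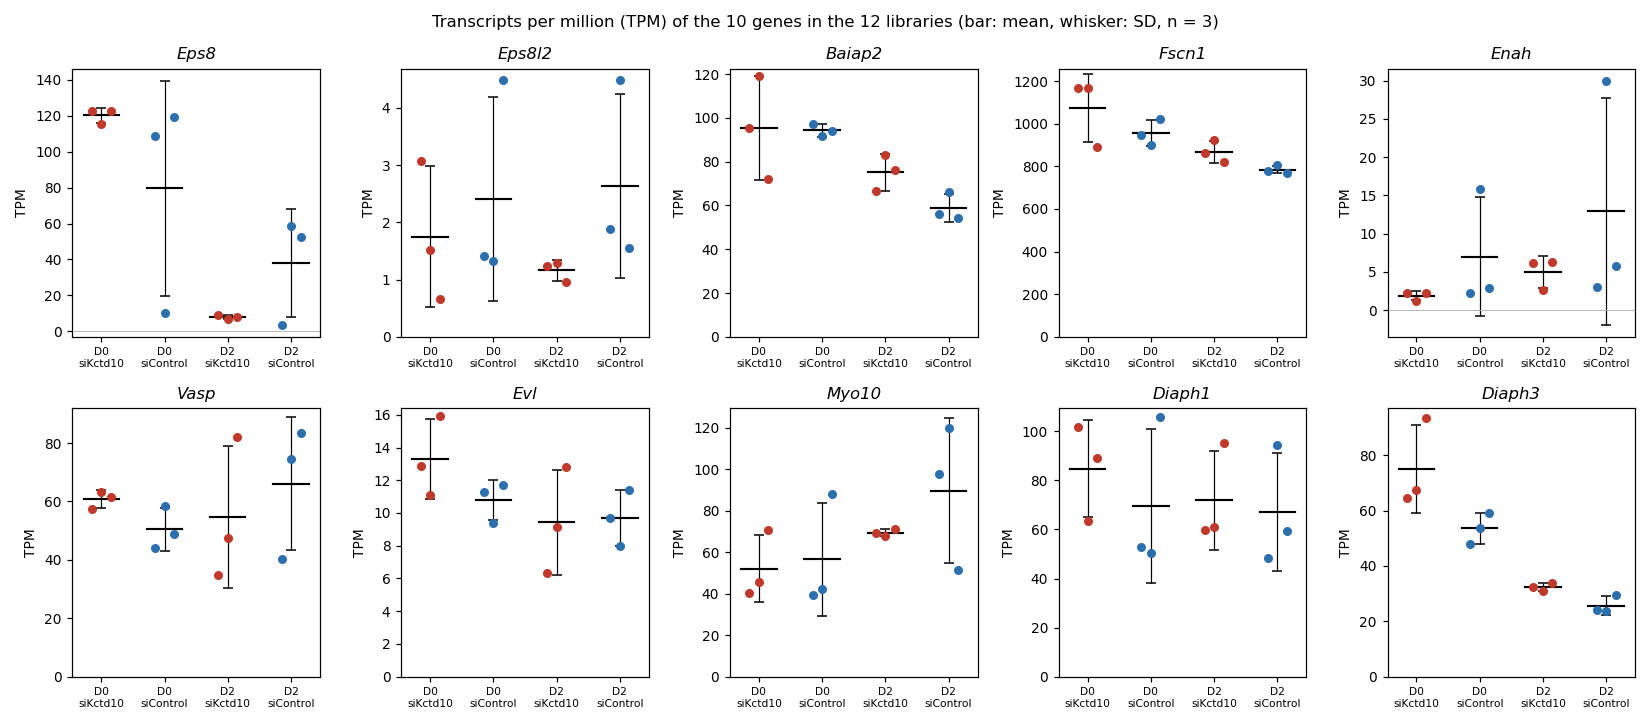
TPM of each gene in the 12 libraries, with D0 left of D2 and siKctd10 (red) left of siControl (blue) within each day; bars give the mean and whiskers the SD of 3 libraries. Diaph3 and Fscn1 replicates lie close together, while Eps8 spans 3.77 to 58.4 TPM within D2 siControl and Enah spans 3.05 to 30.0 TPM there.

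Diaph3, which encodes the formin mDia2, a maker of unbranched filaments in filopodia and in the cytokinetic ring, was the member whose fall from D0 to D2 was called in both siRNA arms. It had 32.5, 30.9 and 33.7 TPM in D2 siKctd10, against 64.4, 67.3 and 93.3 TPM in D0 siKctd10. In siControl it had 23.9, 23.8 and 29.5 TPM at D2, against 48.0, 53.8 and 59.0 TPM at D0. Neither pair of groups overlapped. The log2 fold changes, on the log2(TPM + 1) scale, were -1.17 ± 0.15 in siKctd10 (SE, adjusted p = 0.00022) and -1.03 ± 0.15 in siControl (adjusted p = 0.00048, limma). With 3 libraries against 3, an exact two-sided permutation test cannot go below 0.1, and it gave 0.1 for both. Diaph3 was also higher in every siKctd10 library than in every siControl library of the same day, but neither difference passed: 0.46 ± 0.15 at D0 (adjusted p = 0.17) and 0.33 ± 0.15 at D2 (adjusted p = 0.28). Its 4 group means ran 75.0 (D0 siKctd10), 53.6 (D0 siControl), 32.3 (D2 siKctd10) and 25.7 TPM (D2 siControl). By gene TPM, neighbours in that order did not overlap. The order was not itself shown by a test, since neither siRNA difference passed and D0 siControl was not compared with D2 siKctd10.

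The sum of 4 cell cycle markers was, like Diaph3, lower at D2 than at D0. The summed TPM of Mki67, Top2a, Ccnb1 and Mcm5 was 382 to 438 in D2 siKctd10, against 1036 to 1137 in D0 siKctd10. In siControl it was 378 to 569 at D2, against 880 to 1171 at D0. Ccnb1 alone overlapped between days in both arms. It had 12.2 to 85.1 TPM in D2 siKctd10, against 32.1 to 197 TPM in D0 siKctd10. In siControl Ccnb1 had 9.17 to 87.6 TPM at D2, against 30.7 to 201 TPM at D0. The part of proliferation in the Diaph3 values was not tested. The level of Diaph3 rests on many exons: 20 of the 28 exons of its main transcript carried reads in at least 6 libraries, and its last exon made up 5.54 to 10.4% of the transcript's coverage.

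Baiap2, the gene of IRSp53, was lower at D2 than at D0 by gene TPM in siControl cells, and in siKctd10 cells the difference did not pass. In siKctd10 cells it had 66.4, 82.9 and 76.0 TPM at D2, against 95.4, 119 and 71.9 TPM at D0. These groups overlapped through the D0 library numbered 3, and the log2 difference of -0.32 ± 0.17 (SE) did not pass (adjusted p = 0.17 by limma). Without that library it did, at -0.51 (adjusted p = 0.018). In siControl cells it had 56.3, 66.3 and 54.3 TPM at D2, against 97.2, 91.6 and 94.1 TPM at D0, so the groups did not overlap, and the change was -0.67 ± 0.17 (adjusted p = 0.01). The fall was not shown to differ between the siRNA arms: the difference of the 2 differences was 0.36 ± 0.24 (interaction, adjusted p = 0.69).

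At D2 the 3 siKctd10 libraries were all above the 3 siControl libraries for Baiap2, with 66.4 against 66.3 TPM at the nearest pair, and the difference of 0.34 ± 0.17 did not pass (adjusted p = 0.3). At D0 the means were 95.5 ± 23.7 TPM in siKctd10 and 94.3 ± 2.82 TPM in siControl (SD, n = 3 each), a log2 difference of -0.01 ± 0.17. In order, the group means were D0 siKctd10, D0 siControl, D2 siKctd10 (75.1 ± 8.28 TPM) and D2 siControl (58.9 ± 6.43 TPM), where D0 siKctd10 overlapped both D0 siControl and D2 siKctd10.

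IRSp53 is made in forms that differ in their C-terminal ends, and 2 of the 4 Baiap2 transcripts in the files carried nearly all of its level. The transcript uc007mrj.2, of 14 exons, made up 58.7% of Baiap2 TPM in D2 siKctd10, 56.2% in D2 siControl, 62.9% in D0 siKctd10 and 57.5% in D0 siControl. The transcript uc007mri.1, of 13 exons with a different last exon, held nearly all the rest. In siControl, uc007mrj.2 had 36.8, 27.7 and 34.9 TPM at D2, against 55.5, 54.5 and 52.8 TPM at D0. The other transcript had 19.5, 38.6 and 19.4 TPM at D2 and 41.7, 37.1 and 41.3 TPM at D0 in siControl. Its groups overlapped through the D2 library numbered 2. In the deposited exon coverage, uc007mrj.2 had reads on its last exon alone (424 bases), with its other 13 exons listed at 0 in all 12 libraries. Under uc007mri.1, exons 6 to 10 and the last exon carried reads in several libraries, exon 12 in 1, and exons 1 to 5 and 11 were listed at 0 in all 12. Exons 1 to 12 have the same coordinates in both transcripts, yet their reads were listed under uc007mri.1 alone. The shares of the 2 transcripts depend on that assignment and may not be the levels of the 2 forms. In D2 siControl, exon 7 of uc007mri.1 stood at 222 in the library numbered 2, against 0.506 and 0 in those numbered 1 and 3. Its last exon, of 2534 bases, stood at 31.8 in the library numbered 2, against 15.6 and 16.0.

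**Figure D2:**
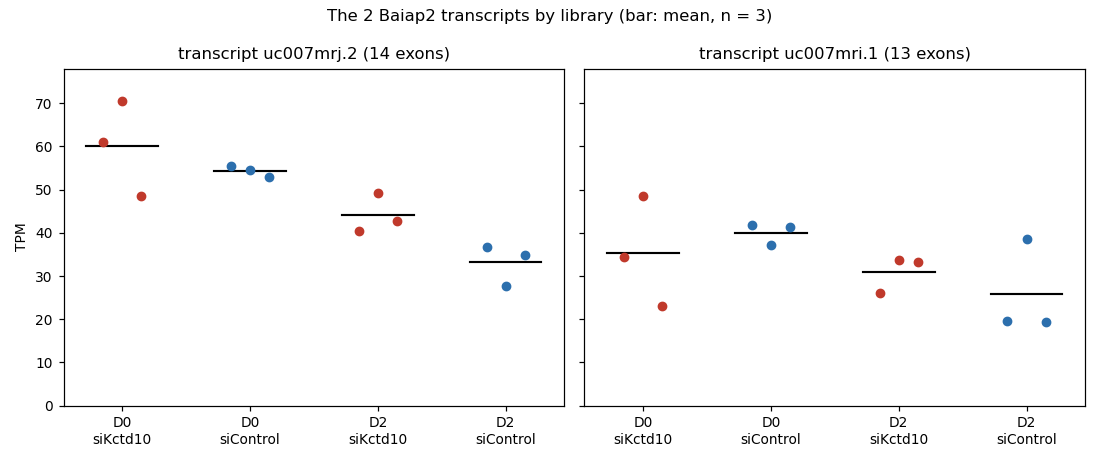
TPM of the 2 main Baiap2 transcripts by library, with D0 left of D2 and siKctd10 (red) left of siControl (blue); bars are means of 3 libraries. For uc007mrj.2 every D2 siControl library (27.7 to 36.8 TPM) lies below every D0 siControl library (52.8 to 55.5 TPM).

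The promoters of Baiap2 and Diaph3 are shown because these 2 genes were called lower at D2 in siControl cells. They run from 250 bases before to 50 bases after the transcription start (RefSeq, GRCm38.p6, the build of mm10). Capitals mark CCAAT or its reverse complement ATTGG, a short motif common in promoters of cell cycle genes.

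Baiap2, chr11:119942842-119943141, plus strand: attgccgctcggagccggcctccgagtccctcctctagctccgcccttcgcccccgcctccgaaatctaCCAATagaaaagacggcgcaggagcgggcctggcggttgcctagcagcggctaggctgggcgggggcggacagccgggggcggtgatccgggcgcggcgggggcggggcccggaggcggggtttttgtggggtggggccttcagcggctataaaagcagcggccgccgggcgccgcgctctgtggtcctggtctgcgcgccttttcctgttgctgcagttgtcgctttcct

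Diaph3, chr14:87141175-87141474, minus strand: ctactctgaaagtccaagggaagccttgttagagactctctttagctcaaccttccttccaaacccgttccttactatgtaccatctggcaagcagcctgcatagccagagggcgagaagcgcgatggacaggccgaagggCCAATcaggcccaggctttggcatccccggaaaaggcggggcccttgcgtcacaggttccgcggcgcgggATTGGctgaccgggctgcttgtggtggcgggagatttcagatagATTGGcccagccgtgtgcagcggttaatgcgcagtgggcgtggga

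The window held 3 matches in Diaph3 and 1 in Baiap2. Of the 8 members in the promoter table, Myo10 was the other that held one, in 1 of its 2 promoters. On either strand, 37.4% of the 32851 promoters in the table hold the motif, so a match is common.

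Eps8, the gene of the capping and bundling protein, gave the largest fall in size and the least even replicates. In siKctd10 cells it had 9.24, 6.96 and 7.94 TPM at D2, against 123, 115 and 122 TPM at D0, or -3.75 ± 1.05 on the log2 scale (SE, adjusted p = 0.019 by limma). The groups were far apart and each was tight. In siControl cells it had 3.77, 58.4 and 52.4 TPM at D2, against 109, 10.5 and 119 TPM at D0. One library of each siControl group stood far below its replicates, the groups overlapped, and the difference of -1.11 ± 1.05 did not pass (adjusted p = 0.46). The knockdown comparisons were -1.46 ± 1.05 at D2 (adjusted p = 0.49) and 1.18 ± 1.05 at D0 (adjusted p = 0.63), with overlapping groups on both days. Single siControl libraries set these sizes: leaving out 1 library at a time gave -2.65 to -0.83 at D2 and 0.08 to 1.77 at D0, where 0.08 was without the siControl library numbered 2, and none passed. The difference between days in siControl was 0.08 without the D2 library numbered 1 and -2.22 without the D0 library numbered 2, and neither passed. The interaction, -2.64 ± 1.49, did not pass (adjusted p = 0.62). The fall in siKctd10 lost its call without the D2 siKctd10 library numbered 2 (-3.66, adjusted p = 0.054) and without both siKctd10 libraries numbered 3 (-3.73, adjusted p = 0.093).

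The exon coverage deposited beside these levels shows where the Eps8 values come from. A transcript's level in these files is the length-weighted mean of the coverage of its exons (deviation at most 9.52e-05% for the members), and many exons of well expressed genes are listed at 0: 52.3 to 56.8% of them per library, over genes with a mean TPM of at least 10. The main Eps8 transcript, uc009enc.2, has 22 exons and 4567 bases, of which the last exon holds 1885 (chr6:137477245-137479129, minus strand). Of the 22 exons, 12 were listed at 0 in all 12 libraries. The last exon made up 6.72 to 95.3% of the transcript's coverage, with a median of 82.8%.

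Scaled to TPM, the last Eps8 exon stood at 1.49, 3.67 and 2.8 in D2 siKctd10, against 262, 246 and 253 in D0 siKctd10. In siControl it stood at 1.46, 129 and 121 at D2, against 236, 15.9 and 231 at D0. The libraries low for the gene were thus the libraries low for this exon. Exons 19 and 20, both coding, were low in other sets of libraries. Exon 19 had 85.0, 80.8 and 65.6 in D2 siKctd10, against 137, 169.5 and 144 in D0 siKctd10. In siControl exon 19 had 64.8, 64.6 and 0.0864 at D2, against 134, 0.323 and 160 at D0. Exon 20 had 73.0, 0.296 and 90.4 in D2 siKctd10, against 97.6, 140.5 and 159 in D0 siKctd10. In siControl exon 20 had 0, 51.7 and 61.7 at D2, against 111, 99 and 147 at D0. Where they stood above 1, both exons were lower in every D2 library than in any D0 library, and at D2 they stood at 65.6 to 90.4 in siKctd10 and at 51.7 to 64.8 in siControl. The sequences of both are given because their coverage and that of the last exon lead to different sizes of change.

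Eps8 exon 19, chr6:137490217-137490439, minus strand, 223 bases: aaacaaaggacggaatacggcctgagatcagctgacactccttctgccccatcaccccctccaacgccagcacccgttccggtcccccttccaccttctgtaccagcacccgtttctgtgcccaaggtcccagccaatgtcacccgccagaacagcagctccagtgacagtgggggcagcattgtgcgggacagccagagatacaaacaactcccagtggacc

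Eps8 exon 20, chr6:137483542-137483722, minus strand, 181 bases: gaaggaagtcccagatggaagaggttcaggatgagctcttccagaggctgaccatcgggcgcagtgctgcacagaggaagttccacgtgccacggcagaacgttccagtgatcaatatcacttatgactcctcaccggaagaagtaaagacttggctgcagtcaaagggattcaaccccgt

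**Figure D3:**
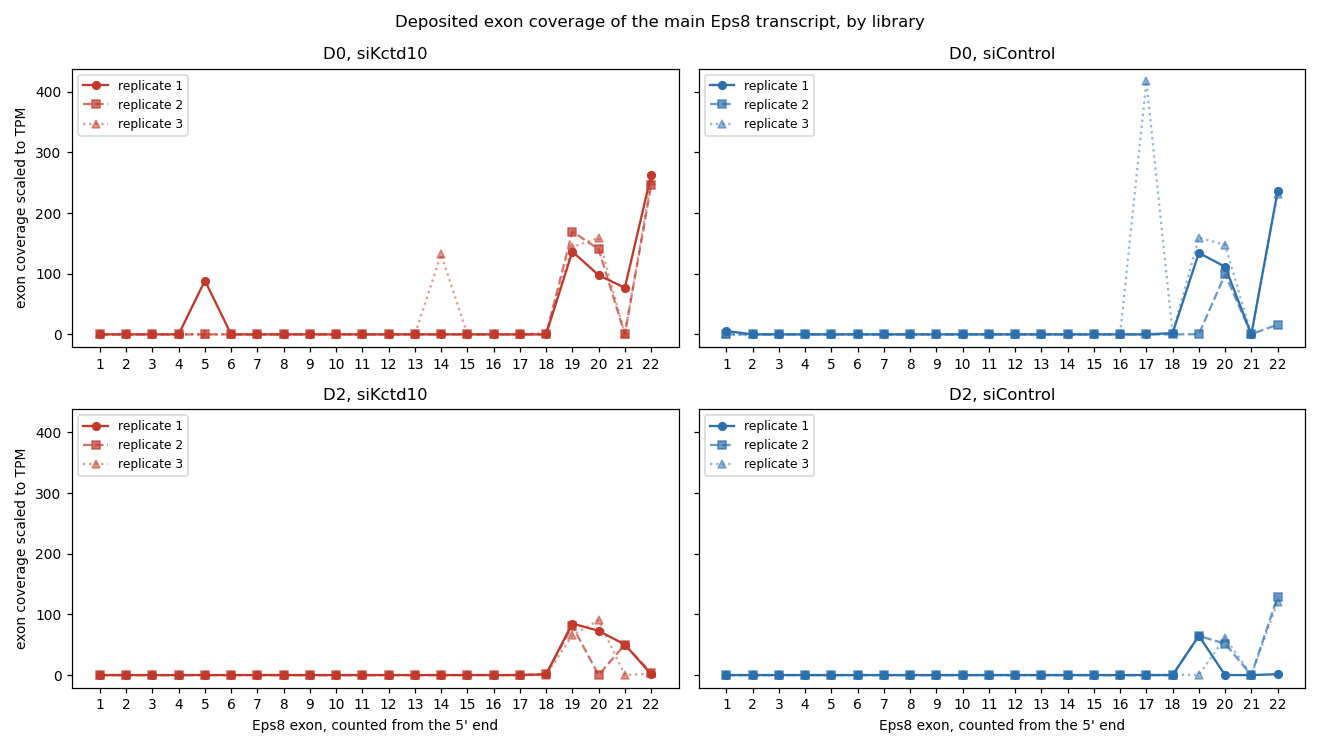
Deposited coverage of the 22 exons of the main Eps8 transcript, scaled to TPM, in the 3 libraries of each group; exons are counted from the 5′ end, siKctd10 is red and left, siControl blue and right. Exon 22 stands at 246 to 262 in D0 siKctd10 and at 1.49 to 3.67 in D2 siKctd10, while exon 19 stands at 137 to 169.5 and 65.6 to 85.0 there.

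A second measure was therefore computed for all genes from exon coverage, after the data had been seen. It takes the median over the covered exons of a gene's main transcript and leaves an exon out of a library where it is listed at or near 0. For Eps8, 3 exons qualified (19, 20 and 22). It gave 83.2, 80.8 and 81.4 in D2 siKctd10, against 137, 169.5 and 178 in D0 siKctd10, a log2 fold change of -0.97 ± 0.43 that did not pass (adjusted p = 0.099). In siControl it gave 64.8, 64.6 and 85.5 at D2, against 134, 39.3 and 164 at D0 (-0.43 ± 0.43, adjusted p = 0.47). Between the siRNAs the difference was 0.20 ± 0.43 at D2 (adjusted p = 0.83) and 0.75 ± 0.43 at D0 (adjusted p = 0.4). The Eps8 values by this measure rest on different exons in different libraries. Exon 22, the exon with the largest change, was left out of all 3 D2 siKctd10 libraries and of the D2 siControl library numbered 1, and was kept in the other 8 libraries, so the measure by its construction does not count the fall of that exon.

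By exon coverage, 1 of the 10 genes passed for siKctd10 against siControl at D2 (3.73% of all genes did), 0 at D0 (2.78%), 4 for D2 against D0 in siKctd10 (38.8%) and 4 for D2 against D0 in siControl (37.6%). None of the 10 passed for the interaction by gene TPM, where 0.741% of all genes did, or by exon coverage (0.486%). For Baiap2 the measure is the last exon of uc007mrj.2 alone. Baiap2 and Diaph3 were lower at D2 in both siRNA arms by this measure: the log2 fold change of Baiap2 was -0.43 ± 0.14 in siKctd10 (adjusted p = 0.031) and -0.72 ± 0.14 in siControl (adjusted p = 0.0019). That of Diaph3 was -1.34 ± 0.14 in siKctd10 and -1.09 ± 0.14 in siControl (adjusted p = 1.7e-05 and 7.4e-05). Between siRNAs the Diaph3 groups overlapped at D2 by this measure, with a log2 difference of 0.16 ± 0.14 (adjusted p = 0.57). At D0 they did not overlap, and the difference of 0.41 ± 0.14 did not pass (adjusted p = 0.14).

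**Figure D4:**
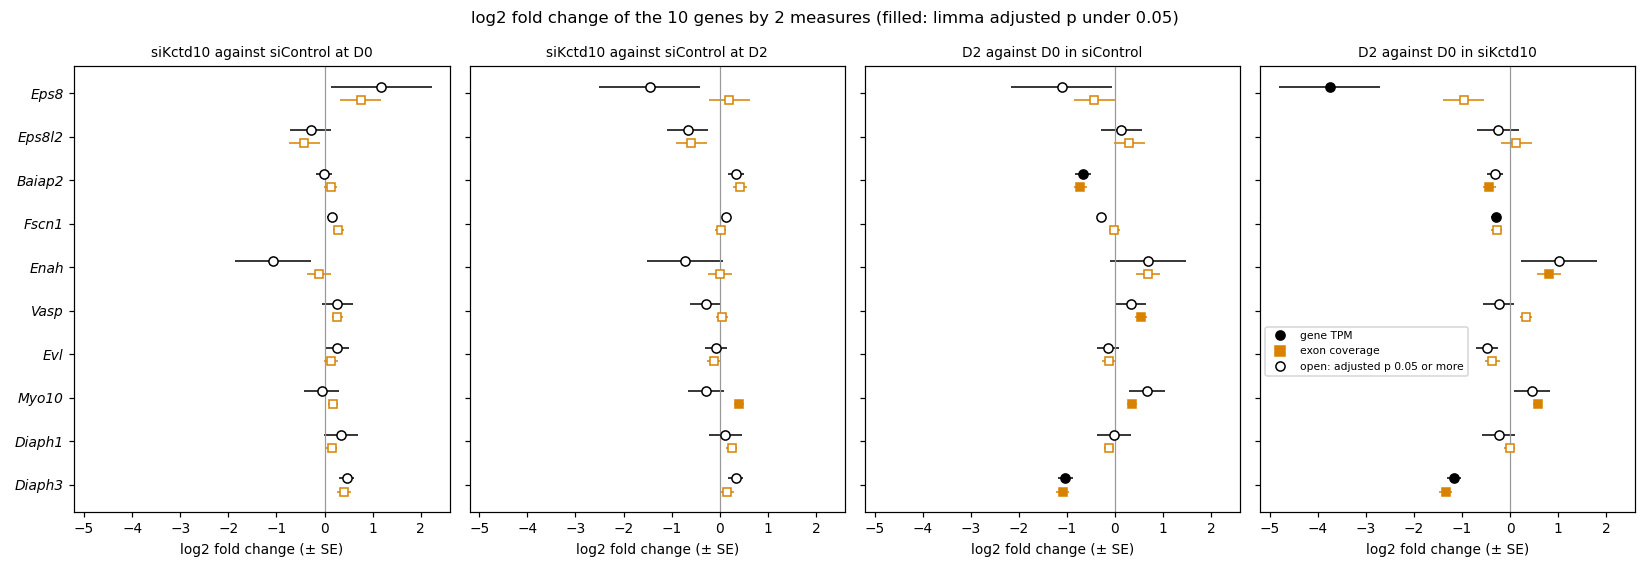
log2 fold change (± SE) of each gene in the 4 comparisons, by gene TPM (black circles) and by exon coverage (orange squares); filled symbols passed the limma threshold. Diaph3 is lower at D2 in both siRNA arms by both measures (-1.03 to -1.34), whereas Eps8 in siKctd10 moves from -3.75 by gene TPM to -0.97 by exon coverage.

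Fscn1 encodes fascin, the main bundling protein of filopodia, and was the most abundant of the 10 in every library. Its single transcript of 5 exons shares no exon base with another, and each exon carried reads in at least 10 libraries. Exon 3 was listed at 0 in the D2 siControl libraries numbered 1 and 3, and exon 4 in the D2 siControl library numbered 1 and the D0 siKctd10 library numbered 3. It had 861, 922 and 818 TPM in D2 siKctd10, against 1168, 1167 and 891 TPM in D0 siKctd10, a log2 fold change of -0.30 ± 0.10 at the edge of the threshold (adjusted p = 0.047). In siControl it had 780, 805 and 769 TPM at D2, against 945, 901 and 1024 TPM at D0, groups that did not overlap, with -0.28 ± 0.10 on the other side of the threshold (adjusted p = 0.06). The median change of all genes was 0.12 in siKctd10 and 0.09 in siControl, so Fscn1 lay below the bulk of genes by more than its own fold change. Rescaled by median ratios, it passed in siControl as well (-0.38, adjusted p = 0.0092). By exon coverage it did not pass in either arm (-0.28, adjusted p = 0.061 in siKctd10, and -0.01, adjusted p = 0.97 in siControl), and the siKctd10 call was also lost when any of the siKctd10 libraries other than the D0 library numbered 3 was left out (adjusted p 0.056 to 0.15). Knockdown differences were 0.14 ± 0.10 at D2 and 0.16 ± 0.10 at D0 (adjusted p = 0.5 for both).

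Myo10 encodes myosin X, the motor that gathers cargo such as Ena/VASP proteins at filopodial tips. Its gene TPM was uneven within 3 of the 4 groups. It had 69.2, 67.7 and 71.2 TPM in D2 siKctd10, against 97.6, 120 and 51.4 TPM in D2 siControl. At D0 it had 40.4, 45.4 and 70.5 TPM in siKctd10, against 39.5, 42.2 and 88.1 TPM in siControl. All groups overlapped their references, and no comparison passed (adjusted p 0.2 to 0.96). Without the D0 siControl library numbered 3, Myo10 passed as higher at D2 in siControl (1.03, adjusted p = 0.049, where all libraries gave 0.67). In each of those 3 groups the higher libraries were those whose last exon, 1551 of 8098 bases, stood at 185 to 324 on the TPM scale, against 27.0 to 53.5 in all others. By exon coverage, over 10 exons, the replicates drew together: 107, 112 and 103 in D2 siKctd10, 82.2, 82.1 and 80.0 in D2 siControl, 67.7, 72.7 and 76.2 in D0 siKctd10, and 56.7, 61.7 and 73.0 in D0 siControl. On that scale Myo10 was higher at D2 than at D0, by 0.57 ± 0.10 in siKctd10 (adjusted p = 0.00078) and 0.36 ± 0.10 in siControl (adjusted p = 0.013).

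Myo10 was also the 1 member called between siRNAs at D2 by exon coverage, at 0.40 ± 0.10 (adjusted p = 0.048), where gene TPM gave -0.28 ± 0.37 (adjusted p = 0.73). The 2 measures thus point in opposite directions for it. Exon 32, its best covered, had 780, 840 and 712 in D2 siKctd10 and 574, 583 and 632 in D2 siControl. The last exon went the other way, with 47.4, 53.5 and 45.5 in D2 siKctd10 and 283, 324 and 36.5 in D2 siControl.

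Among the Ena/VASP genes, Vasp was the most abundant. It had 34.7, 47.5 and 82.0 TPM in D2 siKctd10 and 40.2, 74.6 and 83.5 TPM in D2 siControl, against 57.4, 63.4 and 61.4 TPM in D0 siKctd10 and 44.2, 58.5 and 48.7 TPM in D0 siControl. No comparison passed by gene TPM (adjusted p 0.49 to 0.77). The 3 lowest D2 libraries were those in which the last of its 13 exons was listed at 0.0188 to 0.0413, against 111 to 134 in the other 3. By exon coverage, over 9 exons, the difference of Vasp between days, 0.33 ± 0.12, did not pass in siKctd10 (adjusted p = 0.051), and Vasp was higher at D2 in siControl by 0.54 ± 0.12 (adjusted p = 0.0041).

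Enah, the gene of Mena, had 6.18, 2.6 and 6.25 TPM in D2 siKctd10 and 3.05, 30.0 and 5.79 TPM in D2 siControl, against 2.22, 1.21 and 2.17 TPM in D0 siKctd10 and 2.2, 15.9 and 2.85 TPM in D0 siControl. The siControl libraries numbered 2 stood far above the rest on both days, and in them the last exon, 9512 of 12335 bases, stood at 37.1 at D2 and 19.5 at D0, against 0.458 to 6.54 in the other 10 libraries. No comparison passed by gene TPM. By exon coverage Enah was higher at D2 in siKctd10 (0.80 ± 0.25, adjusted p = 0.025), and the like difference in siControl did not pass (0.68 ± 0.25, adjusted p = 0.05 as rounded). Evl, the third of the family, ranged from 6.35 to 15.9 TPM over the 12 libraries, with overlapping groups in every comparison. Its largest difference was -0.49 ± 0.23 for D2 against D0 in siKctd10 (adjusted p = 0.14), which passed without the D2 siKctd10 library numbered 3 (-0.71, adjusted p = 0.033).

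Diaph1, the gene of the formin mDia1, a RhoA effector, ranged from 48.3 to 106 TPM, and no group stood apart from another. It had 59.7, 60.8 and 95.3 TPM in D2 siKctd10 and 48.3, 94.2 and 59.2 TPM in D2 siControl, and its largest difference was 0.34 ± 0.35 for siKctd10 against siControl at D0 (adjusted p = 0.69). Its last exon stood at 131 to 137 in 3 libraries of 3 different groups and at 0.0457 to 0.403 in the other 9. By exon coverage, over 22 exons, its group means lay between 64.9 and 77.9 and no comparison passed (adjusted p 0.23 to 0.93). Eps8l2, an EPS8 relative that shares its capping and bundling modules, was near the detection limit, with 0.659 to 4.49 TPM. At D2 its siKctd10 libraries, at 1.24, 1.29 and 0.963 TPM, all lay below its siControl libraries, at 1.88, 4.49 and 1.56 TPM, and the difference of -0.67 ± 0.43 did not pass (adjusted p = 0.43). The library at 4.49 TPM was the only D2 library with coverage on exon 6 of Eps8l2 (51.7). By exon coverage, over its last exon alone, the D2 groups overlapped. They stood at 4.1, 4.41 and 2.65 in siKctd10 and 6.44, 6.04 and 4.17 in siControl.

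The genes whose profiles over the 12 libraries came closest to Eps8 were Cobll1, Trnt1 and Ect2. Likeness was the root mean square difference of mean-centred log2(TPM + 1) values among 10338 genes with a mean TPM of at least 5. It was 0.979, 1.14 and 1.19 for these 3, against a root mean square of 1.8 for Eps8 about its own mean, so even the nearest followed it loosely. The nearest to Baiap2 were Ccdc137 (0.123), Wdr5 (0.127) and Mrpl19 (0.135), against 0.326 for Baiap2 about its own mean.

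The wider machinery was read from 65 partner genes in 6 lists, of which 51 were tested. The lists were chosen with earlier results of these data known. Counts and medians over them, set beside all genes, are therefore description and not an independent comparison. The lists described here by their members are headed relatives and partners of EPS8 and IRSp53, other formins, other bundlers and profilins, and Ena/VASP ligands. The headings are loose and do not state what each protein does. Fblim1, described below as an adaptor gene, stands under bundlers and profilins. Partner genes called between days were mostly higher at D2. In siKctd10 cells 20 of the 51 were higher and 5 lower, where 23.1% and 13.3% of all genes were. In siControl cells 19 were higher and 2 lower, where 21.4% and 14.1% of all genes were. The median log2 fold change of the 51 was 0.31 in both arms, beside 0.12 for all genes in siKctd10 and 0.09 in siControl. The 2 arms share no library, but each shares libraries with the siRNA comparisons.

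Of the 9 tested relatives and partners of EPS8 and IRSp53, 6 were higher and none lower at D2 in siKctd10, and 4 were higher and none lower in siControl (Mtss1l, Baiap2l1, Wasf2 and Whrn, all also called in siKctd10). Baiap2l1, the gene of the IRSp53 relative IRTKS, has a single transcript in the files and was higher by 0.97 ± 0.11 in siKctd10 (limma adjusted p = 0.00011) and by 0.81 ± 0.11 in siControl (adjusted p = 0.00034). Mtss1l, another I-BAR gene, was higher by 1.84 ± 0.46 and 2.65 ± 0.46 in siKctd10 and siControl (adjusted p = 0.011 and 0.0014), but its main transcript alone turned the sign (-0.45 in siKctd10 and -1.44 in siControl, neither past the threshold). Without both siKctd10 libraries numbered 3 its siKctd10 call was lost (adjusted p = 0.06). Whrn, the gene of the stereociliary EPS8 partner whirlin, was higher by 1.33 ± 0.18 in siKctd10 (adjusted p = 0.00028), but near the detection limit. Summed over 12 transcripts, it had 4.12, 4.9 and 3.41 TPM in D2 siKctd10, against 1.32, 0.875 and 0.935 TPM in D0 siKctd10.

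Formins other than the members were called higher at D2 for 5 of 10 tested genes in each arm, with Fhod1 lower in siKctd10 (-0.38, adjusted p = 0.03). The Fhod1 call was lost without the D0 siKctd10 library numbered 1 or 3 or the D2 siKctd10 library numbered 1 or 2 (adjusted p 0.068 to 0.09). Fmnl3, a formin of filopodia and lamellipodia, was higher by 1.65 ± 0.23 in siKctd10 (adjusted p = 0.00042). Daam2 was higher by 1.34 ± 0.39 in siKctd10 and 1.55 ± 0.39 in siControl (adjusted p = 0.022 and 0.011), and Daam1 by 1.13 ± 0.32 in siControl (adjusted p = 0.022). Both have 6 transcripts in the files. From transcripts with identical introns alone neither Daam2 call held (adjusted p = 0.59 in siKctd10 and 0.11 in siControl), and the main Daam1 transcript alone gave -3.45 (adjusted p = 0.26). Leaving out either of the D0 siControl libraries numbered 1 and 3, or either of the D2 siControl libraries numbered 2 and 3, also ended the Daam1 call (adjusted p 0.058 to 0.068). The Daam2 call in siKctd10 ended without the D0 library numbered 1 or 2 or the D2 library numbered 1 or 3 (adjusted p 0.054 to 0.075).

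Cdc42ep5, a CDC42 effector with a single transcript in the files, was higher at D2 by 1.12 ± 0.27 in siKctd10 and 1.65 ± 0.27 in siControl (adjusted p = 0.0093 and 0.001). Of the 8 genes listed under Ena/VASP ligands, 3 were higher in siKctd10 (Ablim1, Zyx and Raph1) and 2 in siControl (Zyx and Raph1). Apbb1ip and Fyb were lower in both arms. Ablim1 had the largest difference of the partners in siKctd10 (2.78 ± 0.71, adjusted p = 0.012) from 13 transcripts. Of the 7 tested genes listed under other bundlers and profilins, 1 was higher (Pfn2) and 2 were lower (Pfn1 and Actn4) in siKctd10. In siControl 2 were higher (Fblim1 and Pfn2) and none lower.

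With Kctd10 knockdown, partner genes were called on both days, beside 2.45% of all genes at D0 and 4.75% at D2 in either direction. At D0, 2 of the 51 were higher and none lower, where 1.48% and 0.963% of all genes were. At D2, 2 were higher and 2 lower, where 2.83% and 1.92% were. Actn1, the gene of the filament cross-linker alpha-actinin-1, was higher on both days. It had 227, 205 and 203 TPM in D0 siKctd10, against 95.8, 139 and 142 TPM in D0 siControl (0.77 ± 0.14, adjusted p = 0.023). At D2 it had 229, 207 and 231 TPM in siKctd10, against 123, 118 and 139 TPM in siControl (0.80 ± 0.14, adjusted p = 0.013). Groups did not overlap on either day, yet the call rests on the sum of 3 transcripts: the main one alone gave 0.67 at D0 and -0.050 at D2, and neither passed. The D0 call was lost without any 1 of the D0 siKctd10 libraries (adjusted p 0.056 to 0.076), and the D2 call without the D2 siControl library numbered 1 or 2 (adjusted p = 0.05 as rounded, and 0.052).

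Rhoq, the gene of the CDC42 relative TC10, was lower with Kctd10 knockdown at D2 and kept that call in every alternative tried. It had 366, 338 and 315 TPM in D2 siKctd10, against 492, 501 and 499 TPM in D2 siControl (-0.55 ± 0.09, adjusted p = 0.011), from a single transcript in the files. Cdc42ep2 had 91.2, 78.9 and 86.9 TPM in D2 siKctd10, against 244, 245 and 152 TPM in D2 siControl (-1.28 ± 0.22, adjusted p = 0.011), but its main transcript alone gave -0.30 (adjusted p = 0.55). Fhod3, a formin of sarcomeres, had 25.1, 24.2 and 24.5 TPM in D2 siKctd10, against 16.8, 17.0 and 16.7 TPM in D2 siControl (0.52 ± 0.11, adjusted p = 0.024). The call was lost when any 1 of the D2 libraries was left out (adjusted p 0.064 to 0.077), with the replicate block (adjusted p = 0.053) and by exon coverage (0.48, adjusted p = 0.12). Fitted with the 2 compared groups alone, the knockdown calls of Fhod3 (adjusted p = 0.063), Cdc42ep2 (adjusted p = 0.051), Fblim1 at D0 (adjusted p = 0.11) and Actn1 at D0 (adjusted p = 0.16) were lost. The sum of the myocyte markers also differed between the D2 groups, as given above, though Myh3 overlapped. The part of these markers in the D2 values was not tested.

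Fblim1, the gene of the filamin-binding adaptor migfilin, had, at D0, the largest knockdown difference of the partner genes that passed. It had 140, 55.0 and 123 TPM in D0 siKctd10, against 19.5, 22.8 and 22.7 TPM in D0 siControl (2.13 ± 0.28, adjusted p = 0.0049). By exon coverage the same comparison gave 0.17 ± 0.11 (adjusted p = 0.48). At D2 it had 129, 119 and 114 TPM in siKctd10 and 118, 115 and 117 TPM in siControl. Its D2 against D0 difference in siControl was 2.38 ± 0.28 by gene TPM (adjusted p = 0.00011) and 0.04 ± 0.11 by exon coverage (adjusted p = 0.79). None of the 51 passed for the interaction of day and siRNA, by limma, with 5 at an unadjusted p under 0.05.

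**Figure D5:**
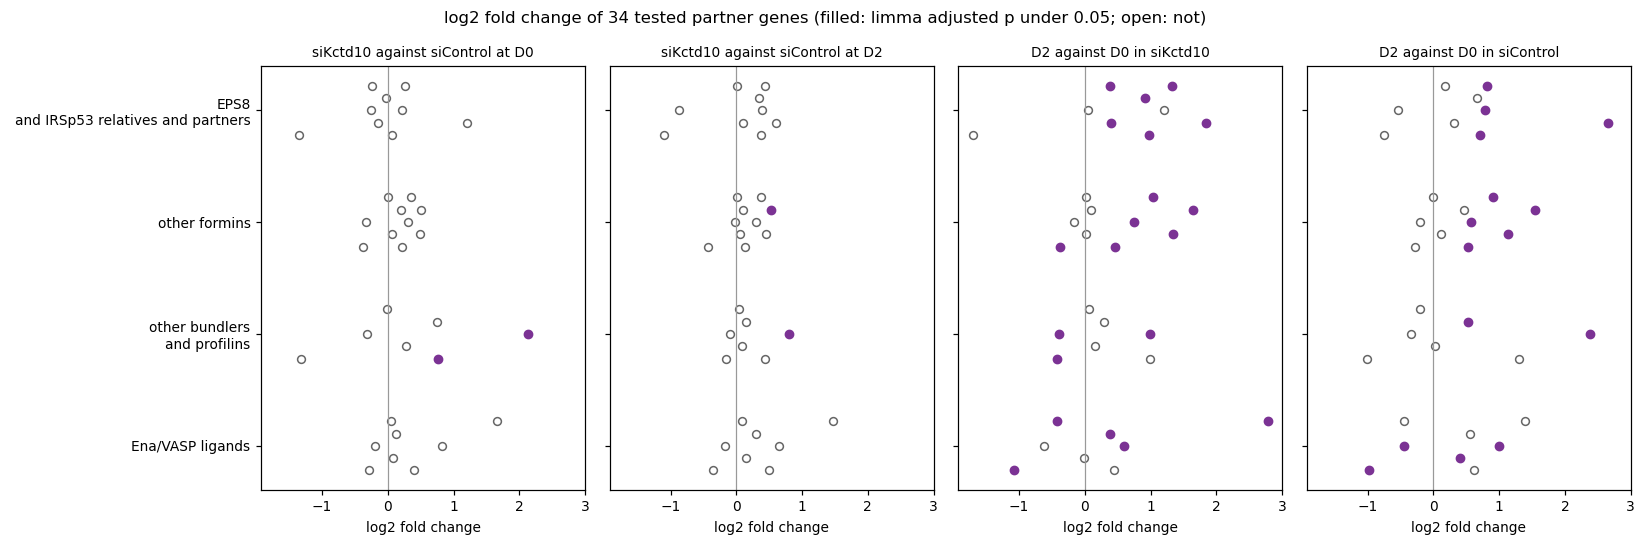
log2 fold change of the 34 tested partner genes in the 4 lists described, by list (vertical position within a list is spread for legibility only) in the 4 comparisons; filled points passed the limma threshold. Of these, 2 passed between siRNAs at D0 and 2 at D2, whereas 20 passed between days in siKctd10 and 15 in siControl.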

How the data were processed

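Poly(A) RNA-seq of 12 C2C12 libraries was analysed in 4 groups of 3, taken from the labels. Per the file headers, transcript levels were estimated with StringTie 1.3.3b against a fixed set of 63759 known transcripts. HISAT, SAMtools, DESeq2, mm10 and another StringTie version (1.1.3) appear in the submitters' processing notes, and which version applies is not settled. Each deposited transcript carries TPM, FPKM and coverage, and each exon coverage, other values than counts, so no count test was run.

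Transcripts were assigned to GENCODE M21 genes (GRCm38, the build of mm10) by identical introns (42608) or at least 50% exon overlap (13473). The other 7678 held 3.82 to 4.63% of TPM. Summed gene TPM was kept at 1 or more in at least 3 libraries (13084 genes). Values of log2(TPM + 1), which understate changes of low genes, were fitted with limma 3.58.1 in R 4.3.3 with a mean-variance trend, robust estimation and 1 mean per group, which leaves 8 residual degrees of freedom. Tests were two-sided, adjusted by Benjamini-Hochberg over all genes tested, at a threshold of 0.05. The steps were tested on simulated data. The files hold no counts, so no counting interval is given.

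The members, the partner list and the marker lists were chosen with earlier results of these data known. The rule named all 10 members, Kctd10, up to 6 partner genes per comparison by size among those past the threshold, and 3 genes most like Eps8 and Baiap2. Any other gene was named after its values were seen (Baiap2l1, Fhod1, Wasf2, Zyx, Raph1, Apbb1ip, Fyb, Pfn1, Pfn2, Actn4 and, among the markers, Myh3). Same-numbered libraries correlated at -0.021 to 0.202 after removal of group means, over 0.1 in 1 of 18 pairs, so the numbers were not taken to pair them. Results for some partner genes are not reported here. Alternatives changed the pseudocount, the filter, the scaling, the libraries fitted, the transcripts summed and the measure, and left out libraries. The exon coverage measure used exons at a scaled coverage of 1 or more in at least 6 libraries, leaving an exon out of a library under 10% of its median.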

Additional observations from a re-analysis of the deposited data

How the results depend on the processing

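The values of the 10 members were recomputed 980 times over 5 comparisons: 951 stayed on their side of the threshold, 15 newly passed, 13 no longer did, and 1 passed with another sign, Myo10 at D2 between siRNAs by exon coverage (0.40 where gene TPM gave -0.28). The sign changed for 50 uncalled member values. By exon coverage 1 member passed between siRNAs at D2, and 4 passed between days in siControl. Leaving out 1 library gave 1 to 4 members called between days in siKctd10 and 2 to 3 in siControl, and 0 in the other comparisons. Baiap2 between days in siKctd10 passed with median-ratio scaling (-0.45, adjusted p = 0.045), and Evl with quantile normalization (-0.69, adjusted p = 0.044). For Fscn1 in siKctd10 the call was lost without a filter (adjusted p = 0.058) and when only the groups compared were fitted (adjusted p = 0.14).

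Counts over all genes moved more. In the main fit, 320 genes passed between siRNAs at D0, 621 at D2 and 97 for the interaction. With the groups compared alone, 72 genes passed between siRNAs at D0 and 260 at D2. Leaving out 1 library gave 118 to 224 genes at D0, 315 to 415 at D2 and 52 to 82 for the interaction. For the interaction 62 passed with a pseudocount of 0.1, 167 with 5, 58 by exon coverage, 63 without the siKctd10 libraries numbered 3, and 42 with a replicate block. With the replicate block the members called were 0 between siRNAs on either day, 2 between days in siKctd10, where Fscn1 was lost (adjusted p = 0.058), and 2 in siControl. Of 426 values of named partner genes and Kctd10, 374 kept their call, 47 lost it and 5 turned sign: with the main transcript alone, Actn1 between siRNAs at D2 (-0.050), Mtss1l between days (-0.45 in siKctd10, -1.44 in siControl) and Daam1 between days in siControl (-3.45), and by exon coverage Actn1 at D2 (-0.33). The cause was not tested. The interaction could not be fitted with only the groups compared.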
